A study of Rattus norvegicus with 30 samples.

Results

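The genes that bring long-chain fatty acids into rat heart cells and carry them across the mitochondrial membranes were described as a set of 10 genes: Cd36, Fabp3, Lpl, Slc27a1, Cpt1a, Cpt1b, Cpt2, Mlycd, Acaca and Acacb. Every row that carried one of these symbols was taken from the 3 deposited expression tables for 8, 21 and 78 weeks. Each table held 16 such rows, of 27408, 27383 and 26553 rows in all. These 16 rows came from 19 of the 41012 probes on the arrays, and all 16 were found in the scanner files.

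The heart takes most of its fuel from fatty acids. Lipoprotein lipase (Lpl) frees them from circulating triglyceride at the capillary wall, the membrane proteins CD36 and FATP1 (Slc27a1) take them up, and the heart fatty acid binding protein (Fabp3) carries them through the cytosol. Carnitine palmitoyltransferase 1, with a liver form (Cpt1a) and a muscle form (Cpt1b), joins the fatty acid to carnitine at the outer mitochondrial membrane, and Cpt2 reverses this step inside. Malonyl-CoA blocks carnitine palmitoyltransferase 1. It is made by the acetyl-CoA carboxylases Acaca, which serves fatty acid synthesis, and Acacb, which sits at the mitochondrion, and it is removed by malonyl-CoA decarboxylase (Mlycd).

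Hearts came from untreated rats of the inbred Fischer strain F344 from the NCTR breeding colony, all fed the NIH-31 diet. There were 5 females and 5 males in each of 3 age groups: young (8 weeks), adult (21 weeks) and old (78 weeks). RNA of each whole heart was hybridized to its own one-color array, 30 arrays in all. The study's question was how the sexes differ within an age, and RNA of the same age was kept in the same batch for this purpose, so that age and this batch cannot be told apart.

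Levels are given as log2 of the scanner's background-subtracted signal relative to the 75th percentile of the same array, so that 0 is the 75th percentile and a step of 1 is a doubling. The 75th percentile itself was between 37.2 and 160 signal units, and 17182 to 24290 spots per array were well above background. On both measures the lowest array was that of male replicate 2 of the adults. In adults the median 75th percentile was 66.8 in males and 98.3 in females. The median number of spots well above background was 19602 in adult males and 21527 in adult females. The part of this in the sex differences at 21 weeks was not tested. In old rats the array of female replicate 2 and that of male replicate 3 read Y-linked genes as arrays of the opposite label did. The labels were kept, and for some genes and for the counts of calls and signs, results in old rats are also given with these 2 arrays left out. The counts of old females above all old males, and the exact permutation p beside them, hold both arrays. All 7 cardiomyocyte markers examined were well above background on all arrays.

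The probe of each gene with the highest mean over all 30 arrays is called its lead probe. All 10 lead probes were well above background on 30 of 30 arrays, and none was saturated on any. Fabp3 and Acacb had 1 probe each. Cd36, Cpt1a, Cpt2, Mlycd and Lpl each had another probe, which came from an expressed sequence tag and was listed on the strand opposite to the probe named for the mRNA. Of 5201 mRNA-named probes whose strand could be compared with RefSeq, 95.1% were listed on the strand of the gene. The rows of the tables do not show this difference, since both rows carry the same symbol. The pairs of Mlycd and Cd36 are shown because their 2 rows gave different age differences. The Mlycd lead probe lies at chr19:49657315-49657374 and the opposite probe at chr19:49657276-49657335 (rat build rn3), and the 21 bases in capitals are the same stretch read from either strand.
Mlycd lead probe, plus strand: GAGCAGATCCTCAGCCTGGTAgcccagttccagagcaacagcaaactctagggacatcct
Mlycd opposite probe, minus strand: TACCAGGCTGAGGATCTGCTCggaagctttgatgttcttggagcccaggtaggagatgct
The Cd36 lead probe is listed at chr4:13518295-13519542, a range of 1248 bases for a probe of 60 bases, so that its match to the genome is split. The opposite Cd36 probe lies at chr4:13536344-13536403, and the 2 share no stretch in either direction.
Cd36 lead probe, plus strand: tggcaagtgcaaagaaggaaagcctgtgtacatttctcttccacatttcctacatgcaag
Cd36 opposite probe, minus strand: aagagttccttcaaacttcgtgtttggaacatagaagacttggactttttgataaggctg

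**Figure D1:**
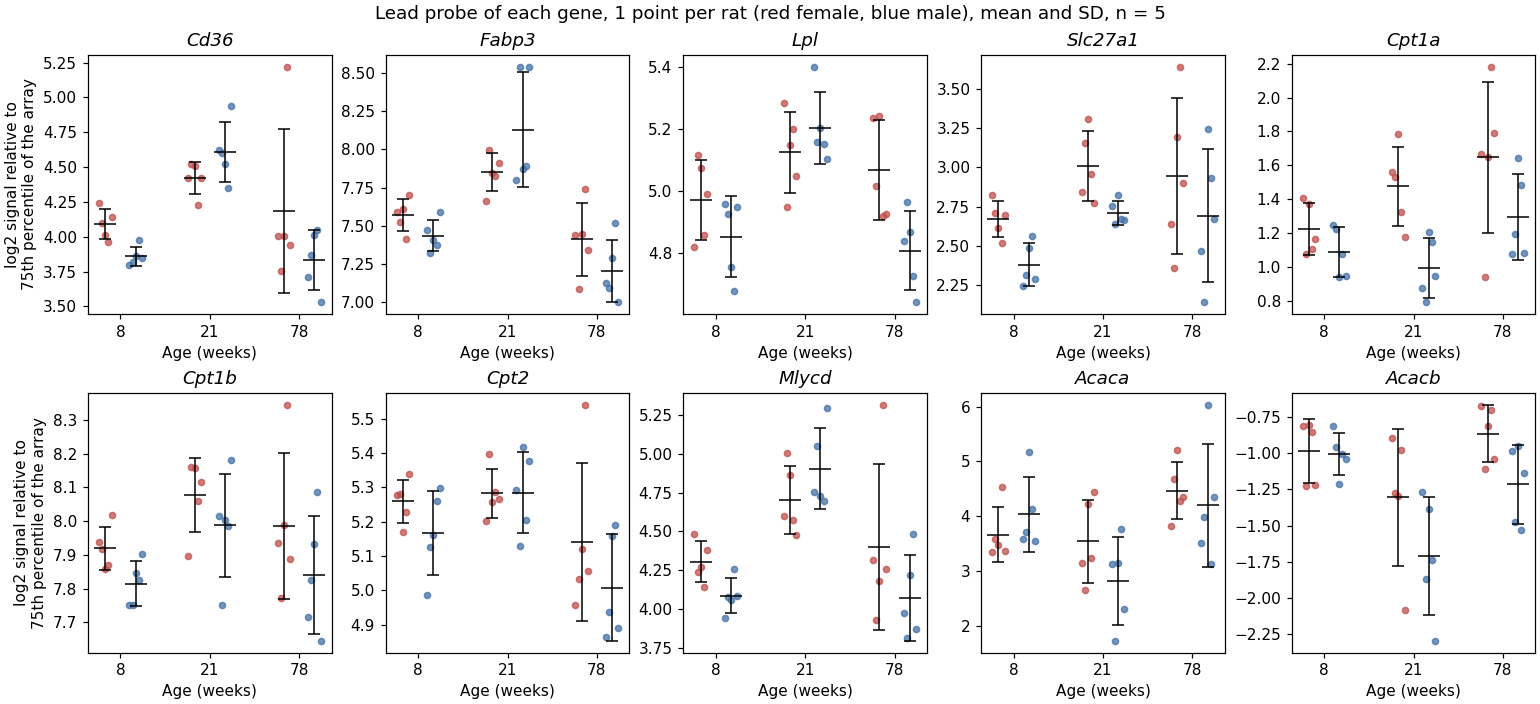
Log2 signal of the lead probe of each of the 10 genes (y axis, relative to the 75th percentile of the array) against age in weeks, 1 point per rat, red for females and blue for males, with the mean and SD of 5 rats. Cd36, Fabp3 and Mlycd stood higher at 21 weeks than at the other ages, 1 female of 78 weeks stood apart for Cd36, Cpt2 and Mlycd, and Acaca was spread from 1.73 to 6.03.

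No lead probe of the 10 genes differed between females and males after adjustment at any age. limma called 0.0634% of all probes at 8 weeks, 0.0317% at 21 weeks and 0% at 78 weeks, so that few calls were made anywhere. Over all probes the smallest adjusted p was 2.04e-10 at 8, 1.52e-08 at 21 and 0.217 at 78 weeks. No probe, Y-linked ones included, was thus called at 78 weeks, where the fit held the 2 arrays at odds with their label. The smallest adjusted p among the 10 genes was 0.913, 0.36 and 0.934. Without these 2 arrays it was 0.47 at 78 weeks, again with 0 of 10 called. At an unadjusted p under 0.05 limma put 3, 1 and 2 of the 10 lead probes, against 4.43, 13.6 and 4.64% of all probes. The methods' t-test put 4, 2 and 2 of 10 without adjustment and 0 at each age after Benjamini-Hochberg adjustment.

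Slc27a1, a fatty acid transport protein with acyl-CoA synthetase activity, had the most even sex difference. Its lead probe read 2.83, 2.71, 2.61, 2.52 and 2.70 in the 5 young females and 2.24, 2.32, 2.49, 2.56 and 2.29 in the 5 young males. Of the females 4 lay above all males. The difference, female minus male, was 0.29 (SE 0.09, 1.22-fold), and its two-sided exact permutation p was 0.0159 (limma adjusted p = 0.913). At 21 weeks the difference was 0.30 (SE 0.15), again with 4 of 5 females above all males and an exact permutation p of 0.0159 (limma adjusted p = 0.363). At 78 weeks it was 0.25 (SE 0.27) with 1 of 5 females above all males, and 0.54 once the 2 arrays at odds with their label were left out (limma adjusted p = 0.751). The other Slc27a1 probe followed the lead probe across rats. At 8 weeks it read 0.77 to 1.03 in females and 0.25 to 0.75 in males, so that the sexes did not overlap (exact permutation p = 0.00794, the smallest that 5 against 5 allows, limma adjusted p = 0.913). Every female lay above every male for 0.595% of all probes at that age.

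Cd36, the main fatty acid translocase of the heart, read 4.24, 4.10, 4.01, 3.96 and 4.14 in young females and 3.80, 3.82, 3.86, 3.97 and 3.85 in young males. The difference of 0.23 (SE 0.08, 1.18-fold) had an exact permutation p of 0.0159 (limma adjusted p = 0.913), with 4 of 5 females above all males. In adults the sign was turned, at -0.19 (SE 0.15), with no female above all males. In old rats it was 0.35 (SE 0.26), and 0.09 without female replicate 4, whose value of 5.22 stood above the 3.75 to 4.00 of the other 4 females.

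Lpl differed by 0.12 (SE 0.09), -0.08 (SE 0.14) and 0.26 (SE 0.10) at 8, 21 and 78 weeks. Its 78-week lead values were 5.24, 5.01, 5.24, 4.92 and 4.93 in females and 4.84, 4.96, 4.87, 4.72 and 4.64 in males, with 3 females above all males (exact permutation p = 0.0238, limma adjusted p = 0.934). On its other sense probe all 5 old females, at 4.08 to 4.70, lay above all 5 old males, at 3.72 to 4.04, a difference of 0.39 (SE 0.13, exact permutation p = 0.00794, limma adjusted p = 0.934). The share of all probes with every female above every male was 0.39% at that age. These counts and this share hold the 2 arrays at odds with their label. Fabp3 differed by 0.13 (SE 0.08), -0.28 (SE 0.19) and 0.21 (SE 0.14), with the sexes overlapping at each age.

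Cpt1a had its clearest sex difference in adults. Its lead probe read 1.56, 1.53, 1.78, 1.32 and 1.18 in adult females and 0.88, 0.79, 1.21, 1.15 and 0.95 in adult males, and 4 of 5 females lay above all males. The difference was 0.48 (SE 0.16, 1.40-fold), with an exact permutation p of 0.0159 (limma adjusted p = 0.36). Over all probes the median sex difference at that age was -0.23, so that Cpt1a stood on the other side of the bulk of the array. It was 0.14 (SE 0.10) in young and 0.35 (SE 0.22) in old rats, and 0.61 in old rats once the 2 such arrays were left out (limma adjusted p = 0.472).

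The muscle form Cpt1b differed by 0.11 (SE 0.07), 0.09 (SE 0.14) and 0.14 (SE 0.13) at the 3 ages, and Cpt2 by 0.09 (SE 0.08), -0.00 (SE 0.13) and 0.13 (SE 0.13). The 95% interval of the Cpt1b difference was -0.05 to 0.26 at 8 weeks, -0.21 to 0.40 at 21 weeks and -0.14 to 0.43 at 78 weeks. Differences as large as these bounds are therefore within the error. The other, dimmer Cpt1b probe differed by 0.22 at 78 weeks, with a 95% interval of 0.01 to 0.43 and no call after adjustment. Mlycd read 4.48, 4.24, 4.27, 4.14 and 4.38 in young females and 3.94, 4.08, 4.06, 4.26 and 4.08 in young males, with 3 of 5 females above all males. The difference was 0.22 (SE 0.09, exact permutation p = 0.0238, limma adjusted p = 0.913), followed by -0.20 (SE 0.18) in adults and 0.33 (SE 0.25) in old rats, and 0.10 in old rats without female replicate 4.

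The carboxylases make malonyl-CoA. Acaca differed by -0.37 (SE 0.35), 0.73 (SE 0.43) and 0.27 (SE 0.50), and its 95% interval at 21 weeks ran from -0.23 to 1.68. Acacb differed by 0.02 (SE 0.12), 0.40 (SE 0.26) and 0.35 (SE 0.15). In old rats Acacb read -0.67, -1.11, -0.81, -0.70 and -1.04 in females and -0.98, -1.48, -0.95, -1.53 and -1.14 in males, where 3 of 5 females lay above all males (exact permutation p = 0.0635, limma adjusted p = 0.934). This count holds both arrays at odds with their label.

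Taken by sign, 9 of the 10 lead probes were higher in females at 8 weeks, 5 of 10 at 21 weeks and 10 of 10 at 78 weeks. Of all probes 58.4, 29.5 and 52.2% were higher in females at these ages. The 10 signs are not independent, since probes such as those of Cd36 and Mlycd moved together across rats. The median difference over the 10 genes was 0.13, 0.04 and 0.26, beside a median over all probes of 0.04, -0.23 and 0.01. The 78-week sign was not independent of the background correction, since with normexp correction 3 of 10 lead probes were higher in females. Without the 2 arrays at odds with their label 10 of 10 were. The change in the sex difference between ages was tested as an interaction, and 0 of 10 lead probes passed in any of the 3 contrasts, against 0.00244% of all probes for 21 against 8 weeks, 0% for 78 against 8 weeks and 0.00244% for 78 against 21 weeks (smallest limma adjusted p 0.298, 1 and 0.357). At an unadjusted p under 0.05 there were 0, 0 and 3 of 10, against 17, 2.35 and 12.6% of all probes.

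**Figure D2:**
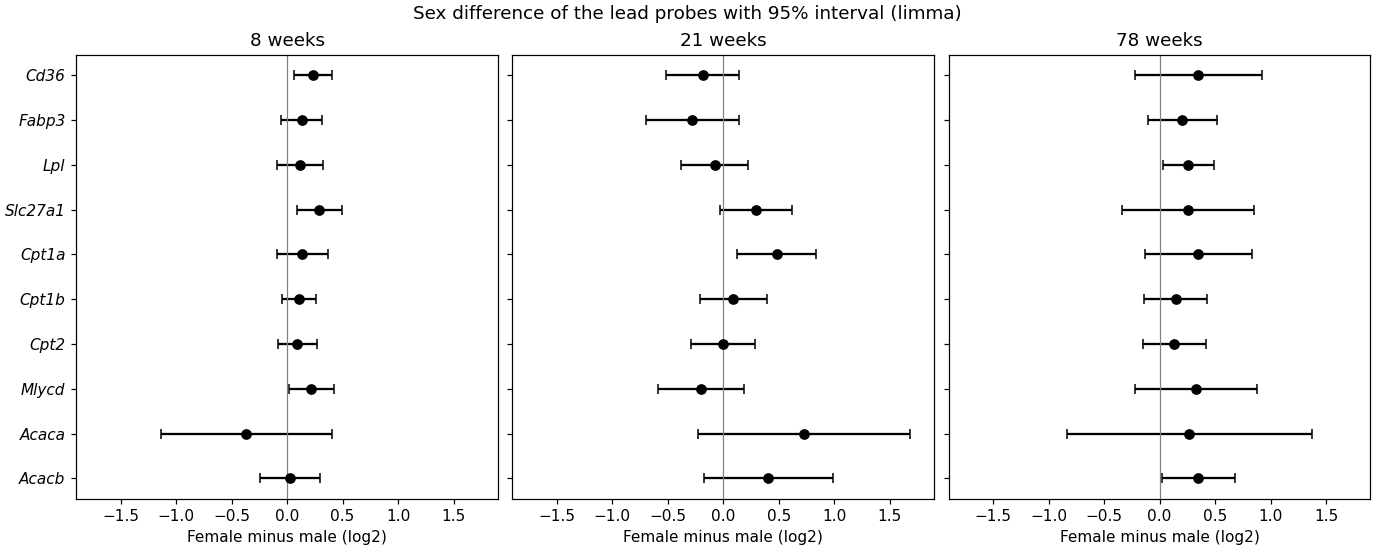
Female minus male difference of the 10 lead probes (x axis, log2) at 8, 21 and 78 weeks, points with 95% intervals from limma, 5 rats per sex. The points lie on both sides of 0 at 21 weeks and above 0 for all 10 genes at 78 weeks, and the widest intervals are those of Acaca.

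Age differences were taken over both sexes from all 30 arrays. Between 8 and 21 weeks 7 of the 10 lead probes passed the adjusted threshold, 6 higher and 1 lower in adults. Of all probes 57.5% passed, 42.4% higher and 15.1% lower, and the median of all probes was 0.29. Quantile normalization gave 2 higher and 2 lower, the raw median signal 3 and 1, and normexp correction none. Of all probes these called 30.8, 80 and 2.21%. With scan day as a term 1 of 10 passed, Lpl (0.48, adjusted p = 0.00292). Between 21 and 78 weeks 7 of 10 passed, 5 lower and 2 higher in old rats, against 33.1% of all probes, 19.5% lower and 13.6% higher, and a median of -0.19. Quantile normalization gave 3 lower and 3 higher, and normexp correction none, against 30.4 and 0.761% of all probes. With scan day as a term 3 passed, Fabp3 and Lpl lower and Cpt1a higher, and within the scan day that held both ages 0 of 10 passed in limma (smallest adjusted p 0.0892). Between 8 and 78 weeks 0 of 10 passed in limma, against 10.9% of all probes, with 2 of 10 at an unadjusted p under 0.05, against 29.2%. Of the 10 lead probes 8 were among the brightest 10% of probes, where 74.9% passed between 8 and 21 weeks and 70.9% between 21 and 78 weeks, so that the share of members called was near that of probes as bright. All 8-week rats were scanned on the first day and all 21-week rats on the second, and each day also held 78-week rats, so that for 21 against 8 weeks scan day and age cannot be told apart without the old rats.

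Cd36 read 4.42, 4.52, 4.51, 4.23 and 4.42 in adult females and 4.62, 4.60, 4.52, 4.35 and 4.94 in adult males. All but 1 of these 10 values lay above the highest young value, 4.24. In old rats it read 4.00, 3.75, 4.00, 5.22 and 3.94 in females and 3.71, 3.87, 4.01, 4.04 and 3.53 in males, so that 9 of 10 rats lay below all adults. Cd36 was thus higher by 0.54 (SE 0.12, 1.45-fold, adjusted p = 0.000635) at 21 than at 8 weeks and fell by 0.50 (SE 0.12, adjusted p = 0.00138) from 21 to 78 weeks. Old and young rats differed by 0.04 (SE 0.12). With scan day as a term the first difference was 0.25 (adjusted p = 0.316). Within the scan day that held both ages, the difference between 78 and 21 weeks was -0.33 (adjusted p = 0.422).

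Fabp3 had the smallest adjusted p of the set. It read 7.66, 8.00, 7.85, 7.83 and 7.91 in adult females and 7.80, 8.54, 7.87, 7.89 and 8.54 in adult males. In old rats it read 7.44, 7.09, 7.45, 7.74 and 7.34 in females and 7.13, 7.09, 7.29, 7.52 and 7.00 in males, and 9 of these 10 values lay below all adult values. It was 0.49 higher (SE 0.09, 1.40-fold, adjusted p = 0.000186) at 21 than at 8 weeks and fell by 0.67 (SE 0.09, 1.59-fold lower, adjusted p = 2.87e-06) from 21 to 78 weeks. With scan day as a term, the difference between 78 and 21 weeks was -0.58 (adjusted p = 0.000586), within the scan day that held both ages it was -0.59 (adjusted p = 0.0892), and under quantile normalization it was -0.30 (adjusted p = 0.000126). Old and young rats differed by -0.19 (SE 0.09, adjusted p = 0.18). Of 7 cardiomyocyte markers 5 were higher and 1 was lower at 21 than at 8 weeks, and 4 were lower and 1 higher at 78 than at 21 weeks, the same directions as Fabp3 for Tnnt2, Tnni3, Actc1 and Myl2. Of all probes 57.5 and 33.1% passed in these comparisons. Under quantile normalization 0 markers were higher and 1 lower at 21 than at 8 weeks and 1 was higher and 1 lower at 78 than at 21 weeks, and normexp correction called none in limma. Of all probes quantile normalization called 30.8 and 30.4% in these comparisons, and normexp correction 2.21 and 0.761%. The part of the markers in the result was not tested.

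Lpl was 0.25 higher (SE 0.07, adjusted p = 0.00276) at 21 than at 8 weeks and fell by 0.23 (SE 0.07, adjusted p = 0.00897) from 21 to 78 weeks, and its other sense probe gave 0.31 and -0.26. Under quantile normalization these 2 lead differences were 0.03 and -0.01, and within the scan day that held both ages the second was -0.36 (adjusted p = 0.113). Slc27a1 was 0.34 higher (SE 0.12, adjusted p = 0.0206) at 21 than at 8 weeks and stood 0.30 (SE 0.12, adjusted p = 0.121) above the young level at 78 weeks, with -0.04 (SE 0.12) between 21 and 78 weeks. Its 21-week difference was 0.23 under quantile normalization (adjusted p = 0.196), and its sign was turned with scan day as a term, at -0.017 (adjusted p = 0.952), and under normexp correction, at -0.083 (adjusted p = 0.838). In bulk heart RNA fewer cells of a type and less RNA per cell cannot be told apart.

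The lead probes of Cpt1b and Cpt2 differed little with age. Cpt1b read 7.75 to 8.02 in the 10 young rats, 7.75 to 8.18 in the adults and 7.64 to 8.34 in the old. Its 21-week difference of 0.17 (SE 0.07, adjusted p = 0.0425) kept its call in 14 of 30 fits that left out 1 array, and quantile normalization turned it to -0.27 (adjusted p = 0.012). The other, dimmer Cpt1b probe, on the sense strand, was well above background on 30 of 30 arrays. Its group means were -0.59 (SD 0.07) in young females and -0.65 (SD 0.15) in young males. In old females it had -0.25 (SD 0.15) and in old males -0.47 (SD 0.08). The Cpt2 lead probe fell by 0.20 (SE 0.07, adjusted p = 0.0213) from 21 to 78 weeks, a difference that was 0.01 under quantile normalization. Cpt1a had its highest group mean in old females, 1.65 ± 0.45 (SD, n = 5), and old males had 1.30 ± 0.25, where young females had 1.23 ± 0.15 and young males 1.09 ± 0.15. The difference between 78 and 8 weeks, 0.32 (SE 0.11, 1.24-fold), had an adjusted p of 0.0667, and was 0.21 within the scan day that held both ages (adjusted p = 0.206). Without the array labeled female replicate 2 it passed, with an adjusted p of 0.00607, as did the difference of 0.23 (SE 0.11, adjusted p = 0.104) between 78 and 21 weeks, with 0.00979. Without both arrays at odds with their label these differences were 0.37 (adjusted p = 0.0122) and 0.28 (adjusted p = 0.0211).

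Mlycd, which removes malonyl-CoA, read 4.60, 5.00, 4.86, 4.57 and 4.48 in adult females and 4.75, 5.05, 4.72, 4.70 and 5.30 in adult males, against 3.94 to 4.48 in the 10 young rats. It was 0.61 higher (SE 0.12, 1.53-fold, adjusted p = 0.000275) at 21 than at 8 weeks and fell by 0.56 (SE 0.12, adjusted p = 0.000614) from 21 to 78 weeks. The first difference stood at 0.41 under quantile normalization (adjusted p = 0.00570) and at 0.19 with scan day as a term (adjusted p = 0.428), and the second at -0.35 (adjusted p = 0.0174) and at -0.32 (adjusted p = 0.417) within a scan day.

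Acacb had its lowest group means at 21 weeks. It read -0.89, -1.27, -1.30, -0.98 and -2.08 in adult females and -1.26, -1.86, -1.39, -1.74 and -2.30 in adult males, against -1.23 to -0.81 in the 10 young rats. It fell by 0.50 (SE 0.13, 1.42-fold lower, adjusted p = 0.00228) from 8 to 21 weeks and was 0.45 higher (SE 0.13, adjusted p = 0.00802) at 78 than at 21 weeks, with -0.06 (SE 0.13) between old and young. Both differences kept their call under quantile normalization, at -0.43 and 0.35. They lost it with scan day as a term, at -0.41 (adjusted p = 0.157) and 0.38 (adjusted p = 0.0906), and under normexp correction, at -0.026 (adjusted p = 0.877) and 0.16 (adjusted p = 1). Within the scan day that held both ages the second was 0.41 (adjusted p = 0.315). Acaca was 1.16 higher (SE 0.31, 2.24-fold, adjusted p = 0.00423) at 78 than at 21 weeks, and 0.86 (adjusted p = 0.111) with scan day as a term. Its 21-week difference of -0.67 (SE 0.31) had an adjusted p of 0.0673. The other, dimmer Acaca probe, well above background on 26 of 30 arrays, gave 0.34 (SE 0.26, adjusted p = 0.296) between 78 and 21 weeks.

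Between 78 and 8 weeks the opposite-strand probes of Cd36, Lpl, Cpt2 and Mlycd gave another difference than the lead probes of the same genes, and for Cpt1a none was detectable between the strands. At 8 weeks the opposite Mlycd probe read -0.91, -1.14, -1.06, -1.43 and -1.04 in females and -1.39, -1.33, -1.38, -1.29 and -1.47 in males. At 78 weeks it read -0.40, -0.97, -0.52, -0.18 and -0.55 in females and -0.96, -0.60, -0.82, -0.67 and -1.10 in males. The difference between 78 and 8 weeks was 0.57 (SE 0.11, adjusted p = 0.000915), where the lead probe gave 0.05 (SE 0.12).

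The opposite probe of Cd36 gave 0.63 (SE 0.10, adjusted p = 3.95e-05), that of Lpl 0.71 (SE 0.21, adjusted p = 0.0285) and that of Cpt2 0.47 (SE 0.13, adjusted p = 0.0138) between 78 and 8 weeks. That of Cpt1a gave 0.24 (SE 0.17, adjusted p = 0.328). Thus 4 of 5 opposite-strand probes and 0 of 10 lead probes passed in this comparison, all 4 higher in old rats, against 5.76% of all probes higher and 5.15% lower. Of the 4 other sense probes of the 10 genes 1 passed, higher in old rats. All 4 of these sense probes had differences above 0, with a median of 0.32, where the lead probes had a median of 0.04. The opposite-strand probes were dim, with means over all arrays between -2.81 (Lpl) and -0.83 (Mlycd), and no share among probes as dim is set beside them. The opposite Lpl probe was well above background on 15 of 30 arrays, the other 4 on 30 of 30. Those 15 arrays held 1 of 5 young females and 1 of 5 young males, against 4 of 5 old females and 4 of 5 old males.

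Quantile normalization gave 3 of 5 opposite-strand probes between 78 and 8 weeks, without that of Lpl (0.65, adjusted p = 0.0572), the raw median signal gave 4 of 5 and normexp correction 0 of 5. Of all probes these scalings called 10.4, 17.6 and 0.883%. All 5 opposite-strand differences were above 0 under each scaling. The difference between the strands was then tested within each array, where the scaling of the array cancels. From 8 to 78 weeks the opposite probe moved above the lead probe by 0.59 for Cd36 (permutation of age within sex, p = 0.00219), 0.70 for Lpl (p = 0.00237), 0.62 for Cpt2 (p = 0.00296) and 0.53 for Mlycd (p = 0.00023), with 10 rats per age. For Cpt1a it moved by -0.07 (permutation p = 0.992). Over the 15 such tests, 5 genes by 3 pairs of ages, the Benjamini-Hochberg values of the first 4 were between 0.00345 and 0.0111. In this measure 9 of 10 old rats lay above all young rats for Mlycd, 9 for Cd36, 8 for Lpl and 3 for Cpt2. Within the scan day that held both ages the 4 differences were 0.70, 0.70, 0.75 and 0.66. This test was chosen after the separate differences had been seen, and the probes of a pair differ in brightness. A change that depends on brightness does not cancel in this measure and was not tested.

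**Figure D3:**
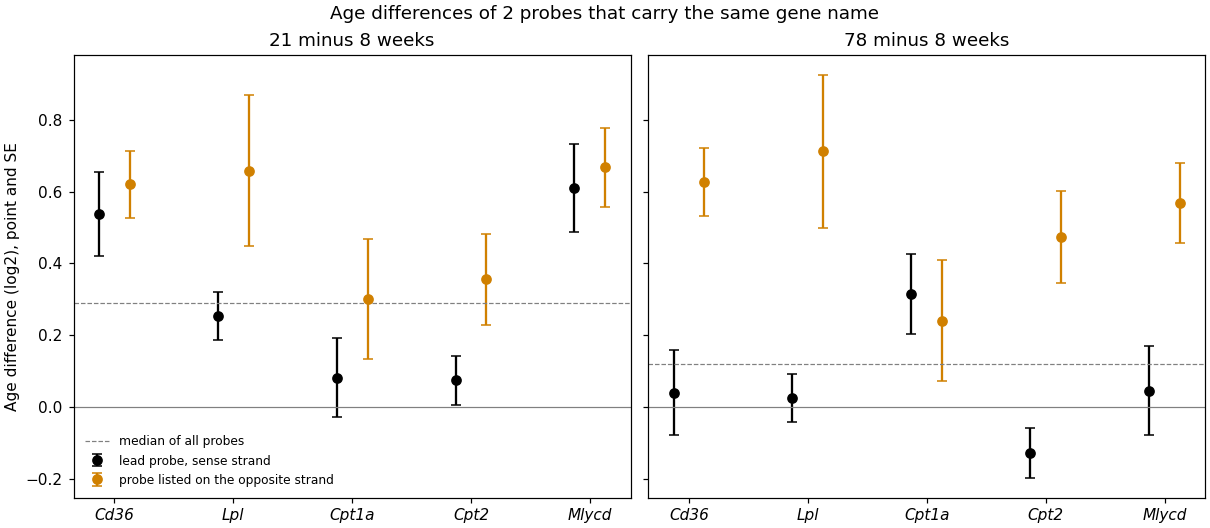
Age differences (y axis, log2, point and SE from limma) of 21 minus 8 weeks and 78 minus 8 weeks for the 5 genes with a probe on each strand, black for the lead probe and orange for the opposite-strand probe, with the median of all probes dashed. At 78 minus 8 weeks the orange points of Cd36, Lpl, Cpt2 and Mlycd lie between 0.47 and 0.71, and the black points of these genes between -0.13 and 0.05.

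Acaca was the most variable of the 10 genes from rat to rat. Young females read 3.35, 3.59, 3.47, 4.54 and 3.37, and young males 3.59, 3.71, 5.18, 4.14 and 3.55. Adult females read 3.15, 2.66, 4.22, 3.24 and 4.44, and adult males 3.12, 1.73, 3.14, 3.77 and 2.30. Old females read 3.81, 4.68, 5.20, 4.28 and 4.35, and old males 3.51, 3.98, 6.03, 3.13 and 4.34. The highest rats of the 3 ages stood at 5.18, 4.44 and 6.03. Old females, from 3.81, lay above all adult males, up to 3.77, and every other pair of groups overlapped.

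These deviations followed a summed level of 6 adipocyte markers. Across the 30 rats, each taken as its deviation from the mean of its sex and age, Pearson's r was 0.876 and Spearman's rho 0.853, each with a permutation p of 1e-05, the smallest that 100000 permutations within groups can give. Over the 70 relations computed between the 10 genes and 7 marker lists the Benjamini-Hochberg value was 0.0007. Without the 2 rats farthest from the median of the markers r was 0.873. It was 0.936 over the 16 arrays of one scan day and 0.819 over the 14 of the other, and 0.980, 0.786 and 0.930 at 8, 21 and 78 weeks. In 5 of 6 groups the rat with the highest Acaca was also the rat with the highest adipocyte markers.

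The markers did not contribute equally. Adiponectin (Adipoq) gave r = 0.902, resistin (Retn) 0.885, adipsin (Cfd) 0.843 and perilipin 1 (Plin1) 0.817 with Acaca, whereas Cidec gave -0.301 and leptin (Lep) -0.0677. The dimmer Acaca probe gave 0.495 with the summed markers. Lep was well above background on 0 of 30 arrays and Plin1 on 13 of 30. The summed level of the list ran from 4.09 to 5.38 in young females, 4.07 to 6.09 in young males, 4.51 to 7.24 in adult females, 5.37 to 6.70 in adult males, 5.11 to 6.53 in old females and 4.98 to 7.27 in old males. With this level as a covariate, chosen after seeing the data, Acaca was -1.52 (adjusted p = 6.34e-07) at 21 against 8 weeks, -0.63 (adjusted p = 0.0595) at 78 against 8 weeks and 0.90 higher (adjusted p = 5.84e-05) at 78 than at 21 weeks. Acacb gave r = -0.317 with the same markers (permutation p = 0.175).

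**Figure D4:**
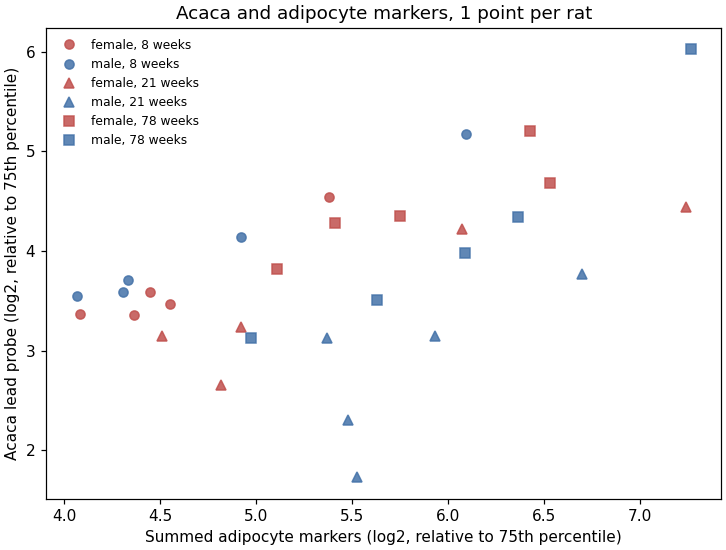
Log2 signal of the Acaca lead probe (y axis) against the summed level of 6 adipocyte markers (x axis, log2), both relative to the 75th percentile of the array, 1 point per rat, red for females and blue for males, circles for 8, triangles for 21 and squares for 78 weeks. Rats with high markers had high Acaca within each age, and most of the 21-week rats lie below the others at a like marker level.

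Of the 45 pairs of lead probes, Cd36 and Mlycd were most alike across rats, with r = 0.904 (permutation p = 1e-05, Benjamini-Hochberg value 0.000225) and rho = 0.743 (p = 0.00017, Benjamini-Hochberg value 0.00255). Female replicate 4 at 78 weeks was the farthest rat, and without it and female replicate 2 of that age r was 0.792. It was 0.851 and 0.916 within the 2 scan days. Cpt1b and Cpt2 gave r = 0.856 and rho = 0.860 (both p = 1e-05, Benjamini-Hochberg values 0.000225 and 0.00045), 0.758 without the 2 farthest rats, and 0.787 and 0.895 within scan days. Fabp3 followed the 7 cardiomyocyte markers with r = 0.746 (permutation p = 8e-05, Benjamini-Hochberg value 0.0028) and rho = 0.698 (p = 0.00036, Benjamini-Hochberg value 0.0126), 0.665 without the 2 farthest rats, and 0.623 and 0.781 within scan days. The 2 measures of a pair were read from the same array in each rat and so share its scaling.

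No gene of 4 further lists, with 10, 8, 11 and 8 measured genes, passed the adjusted threshold for sex at any age in limma. At an unadjusted p under 0.05 there were 1, 4 and 0 genes at 8, 21 and 78 weeks. Of all probes 4.43, 13.6 and 4.64% passed at that level. Among 10 measured partners of uptake and lipolysis, 4 were higher and 0 lower at 21 than at 8 weeks, 2 higher and 4 lower at 78 than at 8 weeks, and 1 higher and 7 lower at 78 than at 21 weeks. These counts stand beside 57.5, 10.9 and 33.1% of all probes called in either direction. Quantile normalization turned them to 3 higher and 2 lower, 3 and 4, and 1 and 4, beside 30.8, 10.4 and 30.4% of all probes. The gene that was higher in all 3 comparisons was Angptl4, a secreted inhibitor of lipoprotein lipase, with 1.20 (SE 0.30, adjusted p = 0.00191) at 21 against 8 weeks, 2.23 (SE 0.30, adjusted p = 9.18e-06) at 78 against 8 weeks and 1.03 (SE 0.30, adjusted p = 0.0087) at 78 against 21 weeks. Gpihbp1, which holds lipoprotein lipase at the capillary wall, rose by 0.91 (adjusted p = 5.62e-05) and 0.48 (adjusted p = 0.0497) against 8 weeks. Vldlr (-0.44, adjusted p = 0.000176) and Cav1 (-0.39, adjusted p = 0.000121) were lower at 78 than at 8 weeks. Quantile normalization kept the calls of Angptl4, Vldlr and Cav1 and those of Gpihbp1 against 8 weeks, and normexp correction called Angptl4 between 78 and 8 weeks (1.13, adjusted p = 0.00453) and no other gene of the list in any comparison. Normexp correction called 2.21, 0.883 and 0.761% of all probes at 21 against 8, 78 against 8 and 78 against 21 weeks. All 6 endothelial markers were lower at 21 than at 8 weeks, against 15.1% of all probes lower. Their summed level ran from 6.53 to 7.48 in adults and from 7.35 to 7.84 in the young. Quantile normalization and the raw median signal each called 5 of 6 lower, and normexp correction 0. Of all probes they called 30.8, 80 and 2.21%, in either direction. The part of these markers in the differences above was not tested.

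Of 8 genes of carnitine handling, 4 were higher at 21 than at 8 weeks and 4 were lower at 78 than at 21 weeks. Between 78 and 8 weeks 0 passed (limma, smallest adjusted p 0.0614). At an unadjusted p under 0.05 there were 3 of 8, against 29.2% of all probes. Slc25a20, the carnitine-acylcarnitine translocase of the inner membrane, was 0.57 higher (SE 0.08, adjusted p = 2.72e-06) at 21 than at 8 weeks and fell by 0.44 (SE 0.08, adjusted p = 7.65e-05) from 21 to 78 weeks. Crat, carnitine acetyltransferase, gave 0.41 and -0.46 (adjusted p = 0.00366 and 0.00174). Of 11 genes around malonyl-CoA, 5 were higher and 1 lower at 21 than at 8 weeks, 1 of the 5 being Mid1ip1, which was well above background on 0 of 30 arrays, and 1 higher and 3 lower at 78 than at 21 weeks. The gene that was higher in the latter was Fasn, fatty acid synthase, at 1.91 (SE 0.74, adjusted p = 0.0473), and Prkab1 (-0.54), Prkag1 (-0.46) and Prkab2 (-0.46), subunits of the AMP-activated protein kinase, were lower. Of 8 genes of triglyceride storage and lipolysis, 5 were higher and 0 lower at 21 than at 8 weeks and 0 higher and 4 lower at 78 than at 21 weeks, among them the lipid droplet protein Plin5 (-0.53, adjusted p = 0.000307) and the lipase Pnpla2 (0.57 and -0.47, adjusted p = 0.001 and 0.00601). The shares of all probes called were 57.5% between 8 and 21 weeks and 33.1% between 21 and 78 weeks. Quantile normalization gave 2 higher and 0 lower for carnitine handling, 2 and 1 around malonyl-CoA and 5 and 0 for triglyceride storage at 21 against 8 weeks. At 78 against 21 weeks it gave 0 and 4, 2 and 3, and 1 and 4, where Fasn had an adjusted p of 0.0529. Of all probes it called 30.8 and 30.4% in these comparisons. Normexp correction called no gene of these 3 lists in any comparison, where it called at most 2.21% of all probes. None of the 4 further lists was fitted with scan day as a term or within a scan day, and rats of 8 and 21 weeks were scanned on different days.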

How the data were processed

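Whole hearts of 30 rats were measured on one-color Agilent rat arrays, and the authors deposited the scanner output of each array and 3 tables, 1 per age. The deposited scanner files give a background-subtracted, linear intensity per spot (Feature Extraction, probe positions on rn3). The authors made the intensity values of the tables by dividing each array by its 75th percentile and, per the study's methods, averaging probes and removing genes not expressed. The rows of a name mix probes, so each row was tied to its probes by its values (tolerance 0.001 on the log2 scale), and the probes were tested. In the 21-week table the male columns do not name the rat.

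Control spots were left out, 43379 spots were averaged to 41012 probes, and log2 intensity minus the 75th percentile of the array was fitted with limma 3.58.1 (R 4.3.3). Sex was fitted within each age, female minus male. Age and interaction came from 1 fit of the 6 groups with slide as a random block (correlation -0.042). P-values were adjusted by Benjamini-Hochberg over all probes, with a threshold of 0.05. Relations between measures used deviations from group means and 100000 permutations within groups. Intervals are 95%. The fitting steps were tested on simulated data. The number of arrays, 5 per group, limits the precision.

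There were 8 slides and 2 scan days. Young rats were on day 1, adults on day 2 and old rats on both. Alternatives were quantile normalization, normexp correction (offset 50), the raw median signal, a filter on dim probes, averaged probes, the authors' tables, blocks, scan day, the methods' t-test and leaving out arrays. Those with the adipocyte level, the strands within an array and the other scalings of the further gene lists were chosen after seeing the data. All 10 genes, all their rows, were named. The genes and lists were chosen with earlier results of these data known.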

Additional observations from a re-analysis of the deposited data

Results flagged for a closer look

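Among groups of 5 rats, 114 combinations of probe and group were examined for 1 rat far from the other 4, and 6 passed the 95% critical value of Dixon's test. Chance passes about 1 in 20 groups. Female replicate 4 at 78 weeks stood apart for 3 genes, with 5.22 for the Cd36 lead probe against 3.75 to 4.00 in the other 4 females, 5.54 for the Cpt2 lead probe against 4.96 to 5.12, and 5.31 for the Mlycd lead probe against 3.93 to 4.32. The differences of Cd36, Cpt2 and Mlycd between 78 and 21 weeks passed the threshold with and without this array. The Acaca lead probe read 4.54 in female replicate 4 at 8 weeks, where the other 4 females read 3.35 to 3.59. The dimmer Acaca probe read -2.40 in male replicate 3 at 8 weeks, against -2.88 to -2.80 in the other 4 males, and -4.08 in female replicate 1 at 78 weeks, against -2.56 to -1.97 in the other 4 females.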

How the results depend on the processing

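The counts of lead probes called for sex and for interaction stayed at 0 of 10 under every alternative run, other than the unadjusted methods' t-test (4, 2 and 2 at 8, 21 and 78 weeks). The age counts did move. From 7 of 10 between 8 and 21 weeks they fell to 4 under quantile normalization, 4 on raw median signals, 0 under normexp correction and 1 with scan day as a term. From 7 of 10 between 21 and 78 weeks they fell to 0 under normexp correction, 3 with scan day as a term and 0 within a scan day. From 0 of 10 between 8 and 78 weeks they went to 1 under quantile normalization, 2 on raw median signals, 1 with averaged probes, 1 without both arrays at odds with their label and 2 within a scan day. For 21 against 8, 78 against 8 and 78 against 21 weeks, quantile normalization called 30.8, 10.4 and 30.4% of all probes. The raw median signal called 80, 17.6 and 35.9%, and normexp correction 2.21, 0.883 and 0.761%. Leaving out 1 array gave 6 to 8, 0 to 2 and 7 to 8 for 21 against 8, 78 against 8 and 78 against 21 weeks, and 0 to 0 for each sex difference and interaction. The count for 78 against 8 weeks was 2 without female replicate 2 at 78 weeks, 1 without female replicate 4 and 1 without male replicate 2 of that age. The correlation of Acaca with adipocyte markers was between 0.858 and 0.938 under all alternatives run. The causes were not tested.

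Same-numbered rats were not paired by any label. Deviations of 15 pairs with the same number correlated between -0.245 and 0.366, with 6 over 0.1. With the replicate number as a block, 0, 0 and 0 lead probes passed for sex, 8, 0 and 7 for age and 0, 0 and 0 for interaction, the added one being Acaca (-0.68 at 21 against 8 weeks, adjusted p = 0.0324).

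The following values had the opposite sign. Under quantile normalization, the sex difference at 21 weeks was 0.0057 for Lpl and 0.091 for Cpt2 and the difference of 21 minus 8 weeks was -0.27 for Cpt1b and -0.16 for Cpt2. The difference of 78 minus 8 weeks was -0.021 for Cpt1b, and the difference of 78 minus 21 weeks was 0.079 for Slc27a1, 0.25 for Cpt1b and 0.014 for Cpt2. The interaction of 21 against 8 weeks was 0.28 for Cpt1b and 0.037 for Cpt2, and the interaction of 78 against 21 weeks was -0.21 for Cpt1b and -0.025 for Cpt2. Under normexp correction, the sex difference at 21 weeks was 0.49 for Cd36, 0.40 for Fabp3, 0.56 for Lpl, 0.67 for Cpt2, 0.58 for Mlycd and -0.100 for Acacb and the sex difference at 78 weeks was -0.021 for Cd36, -0.22 for Fabp3, -0.16 for Lpl, -0.23 for Cpt1b, -0.27 for Cpt2, -0.015 for Mlycd and -0.12 for Acaca. The difference of 21 minus 8 weeks was -0.023 for Fabp3, -0.26 for Lpl, -0.083 for Slc27a1, -0.10 for Cpt1a, -0.39 for Cpt1b and -0.46 for Cpt2, and the difference of 78 minus 8 weeks was -0.52 for Cd36, -0.51 for Lpl, -0.16 for Slc27a1, -0.50 for Cpt1b, -0.53 for Mlycd, -0.078 for Acaca and 0.13 for Acacb. The interaction of 21 against 8 weeks was 0.29 for Cd36, 0.27 for Fabp3, 0.47 for Lpl, 0.70 for Cpt1b, 0.58 for Cpt2, 0.38 for Mlycd and -0.11 for Acacb, and the interaction of 78 against 8 weeks was -0.22 for Cd36, -0.35 for Fabp3, -0.26 for Lpl, -0.37 for Cpt1b, -0.37 for Cpt2 and -0.22 for Mlycd. The interaction of 78 against 21 weeks was -0.51 for Cd36, -0.62 for Fabp3, -0.72 for Lpl, -1.07 for Cpt1b, -0.95 for Cpt2, -0.60 for Mlycd and 0.33 for Acacb. On raw median signals, the sex difference at 21 weeks was 0.043 for Lpl, 0.18 for Cpt2 and 0.078 for Mlycd and the difference of 21 minus 8 weeks was -0.049 for Cpt2. The difference of 78 minus 8 weeks was -0.0016 for Cd36, -0.028 for Lpl and -0.0089 for Mlycd, and the difference of 78 minus 21 weeks was 0.0030 for Slc27a1 and 0.022 for Cpt1b. The interaction of 21 against 8 weeks was 0.18 for Cpt1b, 0.068 for Cpt2 and -0.026 for Acacb, and the interaction of 78 against 8 weeks was 0.10 for Slc27a1. The interaction of 78 against 21 weeks was -0.17 for Cpt1b, -0.033 for Cpt2 and 0.15 for Acacb. With averaged probes, the interaction of 21 against 8 weeks was -0.013 for Slc27a1. Without both arrays at odds with their label, the interaction of 78 against 8 weeks was 0.25 for Slc27a1 and the interaction of 78 against 21 weeks was 0.24 for Slc27a1, 0.13 for Cpt1a and 0.070 for Acacb. With scan day as a term, the difference of 21 minus 8 weeks was -0.017 for Slc27a1, -0.20 for Cpt1a and -0.070 for Cpt2 and the difference of 78 minus 8 weeks was -0.078 for Cd36 and -0.13 for Mlycd. The difference of 78 minus 21 weeks was 0.17 for Slc27a1. Within a scan day, the difference of 78 minus 8 weeks was -0.083 for Cd36, -0.0061 for Cpt1b and -0.12 for Mlycd and the difference of 78 minus 21 weeks was 0.18 for Slc27a1. With slide as a fixed block, the difference of 78 minus 8 weeks was -0.13 for Cd36, -0.13 for Cpt1b, -0.087 for Mlycd and 0.30 for Acacb. With the adipocyte level as a covariate, the difference of 78 minus 8 weeks was -0.63 for Acaca and 0.11 for Acacb. Within the slide that held both ages, the difference of 78 minus 8 weeks was -0.14 for Cd36, -0.13 for Cpt1b, -0.087 for Mlycd and 0.30 for Acacb.

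With 1 array left out at a time, the sex difference at 8 weeks ran from -0.029 to 0.084 for Acacb. The sex difference at 21 weeks ran from -0.041 to 0.031 for Cpt2. The difference of 78 minus 8 weeks ran from -0.094 to 0.096 for Cd36 and -0.074 to 0.11 for Mlycd. The difference of 78 minus 21 weeks ran from -0.13 to 0.035 for Slc27a1. The interaction of 21 against 8 weeks ran from -0.075 to 0.034 for Cpt1b and -0.070 to 0.064 for Slc27a1. The interaction of 78 against 8 weeks ran from -0.14 to 0.23 for Cd36, -0.050 to 0.10 for Cpt1b, -0.059 to 0.088 for Cpt2, -0.011 to 0.16 for Fabp3, -0.12 to 0.23 for Mlycd and -0.21 to 0.11 for Slc27a1. The interaction of 78 against 21 weeks ran from -0.73 to 0.013 for Acaca, -0.26 to 0.10 for Acacb, -0.27 to 0.044 for Cpt1a, -0.036 to 0.12 for Cpt1b and -0.22 to 0.10 for Slc27a1.

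The offset of 50 that normexp correction adds is of the size of the 75th percentiles of the arrays, 37.2 to 160, and it was not tested how far this sets the normexp values.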
